A study of Mus musculus with 24 samples.

Results

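Distal ATAC-seq peaks that Daxx-WT long-term haematopoietic stem cells (LT-HSCs) had, and that neither CMPs (common myeloid progenitors) nor GMPs (granulocyte-monocyte progenitors) of the same genotype had, were examined as a set. ATAC-seq uses the Tn5 transposase to tag accessible DNA, and a peak is an interval where tags pile up. A peak belonged to the set if it lay over 1 kb from every annotated transcription start site and shared no base with an interval of the CMP or GMP list. Of the 65455 intervals in the Daxx-WT LT-HSC list, 13562 (20.7%) met this rule, which was 30.5% of the 44529 distal ones. The remaining 30967 distal LT-HSC peaks, which overlapped a CMP or GMP interval, served as the comparison and are called shared peaks. Of these, 22964 were in both progenitor lists, 6276 in the CMP list alone and 1727 in the GMP list alone. The same rule turned around gave 4502 distal peaks only in CMPs and 8630 only in GMPs.

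The cells came from the bone marrow of C57BL/6 mice, and every group carried 1 Cre allele (Cre +/-). Per the labels, Daxx was +/+ in Daxx-WT mice and F/F in Daxx-KO mice, although a legend of the study gives Daxx +/F for 1 of the 2 controls at 3 d.p.i., and double-knockout (DKO) mice were F/F for both Daxx and Pu.1. Daxx is a chaperone of histone H3.3 and Pu.1 is an ETS transcription factor of myeloid and lymphoid cells. The 6 lists without a time label came from LT-HSCs, CMPs and GMPs that, per the study's methods, were sorted 3 weeks after tamoxifen from Rosa26CreERT2 mice, in which Cre acts in every tissue. Other LT-HSCs, taken at 3 d.p.i. (d.p.i. being days after Cre induction), and KLS cells (c-Kit+ Lin- Sca-1+, the gate that holds LT-HSCs and multipotent progenitors) at 3 w.p.i. (weeks after induction) were processed by another library protocol. The DKO line was crossed with Mx1Cre, which is induced by pI:pC. The mouse methods place the genomic work at 3 d.p.i. in RosaCreERT2 mice, with another tamoxifen dose and route than for the lists without a time label. The ATAC-seq methods name no Cre for the Daxx-WT and Daxx-KO groups of these experiments. The RNA methods name RosaCreER for LT-HSCs at 3 d.p.i. and Mx1Cre for KLS cells. There is 1 list for the 2 or 3 libraries of each group. The 5 lists at 3 d.p.i. and 3 w.p.i. are conservative sets by irreproducible discovery rate, a measure of agreement between replicates, but a peak's presence cannot be read library by library in any list. In bulk cells, fewer cells with an open site and less opening per cell cannot be told apart.

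LT-HSCs sit at the top of blood formation, are mostly quiescent and can rebuild all blood lineages. Distal open sites include enhancers, where transcription factors bind to control genes that may lie far away, and the set of open enhancers changes as stem cells commit. Factors such as Mecom, Meis1, Hlf, Prdm16 and Mllt3 are known for keeping stem cells undifferentiated, while Pu.1 and the C/EBP family drive granulocyte and monocyte programmes. The labelled cell types were checked by promoter peaks of fixed marker genes. Of 8 LT-HSC markers, 7 had a promoter peak in the Daxx-WT LT-HSC list, 6 in CMP and 4 in GMP, and Ly6a, the gene of Sca-1, was without one in all 3. Of 8 myeloid progenitor markers, 3 had one in LT-HSC, 7 in CMP and 8 in GMP. The other 2 marker sets hardly differed between these lists. Of 5 erythroid and megakaryocyte markers, 4, 5 and 5 had one, and of 6 B- and T-cell markers 3, 3 and 2. In the Daxx-WT lists at 3 d.p.i. and of KLS cells, 5 and 3 of the LT-HSC markers had one. Of the myeloid markers, 3 had one in each.

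The sequences below show what the peaks with the highest signal and those beside stem cell genes look like. Each is 200 bases around the summit (the point of highest signal) of a listed peak that overlaps the member. Bases are from the plus strand of mm10 (GRCm38), RefSeq reference sequence. The motif shares given further on use the peak centre instead, so the windows differ. Capitals mark a letter match to the motifs described further on, on either strand. The Lrrn3 member (chr12:41566245-41566444) is shown because it had the highest fold enrichment in the Daxx-WT list at 3 d.p.i. among members without a run of telomere repeats (TTAGGG). The Mllt3 (chr4:87570420-87570619), Meis1 (chr11:19381049-19381248) and Bcl11a (chr11:24162140-24162339) members are shown because they lie beside stem cell factor genes and recurred in all 5 other stem cell and KLS lists.
Lrrn3: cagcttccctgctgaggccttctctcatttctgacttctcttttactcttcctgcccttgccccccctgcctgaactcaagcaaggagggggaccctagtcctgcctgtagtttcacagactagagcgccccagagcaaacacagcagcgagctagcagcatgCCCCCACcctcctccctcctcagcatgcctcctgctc
Mllt3: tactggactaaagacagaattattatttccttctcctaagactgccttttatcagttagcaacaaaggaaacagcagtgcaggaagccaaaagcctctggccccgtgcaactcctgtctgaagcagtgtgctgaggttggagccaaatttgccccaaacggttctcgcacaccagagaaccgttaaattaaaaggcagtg
Meis1: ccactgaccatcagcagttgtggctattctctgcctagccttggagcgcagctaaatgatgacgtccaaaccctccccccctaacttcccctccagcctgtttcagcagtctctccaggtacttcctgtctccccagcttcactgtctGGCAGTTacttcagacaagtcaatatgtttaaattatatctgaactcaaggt
Bcl11a: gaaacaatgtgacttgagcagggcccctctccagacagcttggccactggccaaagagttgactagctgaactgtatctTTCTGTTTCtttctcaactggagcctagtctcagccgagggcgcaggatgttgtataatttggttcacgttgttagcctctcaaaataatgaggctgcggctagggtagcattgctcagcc

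A further 3 members are shown for their values in Daxx-KO or DKO cells and were picked after their values were seen. Their 200 bases lie around the centre of the member. The Mrc1 member (chr2:14339241-14339440) overlapped sites that were higher in Daxx-KO LT-HSCs and in Daxx-KO KLS cells. The Olfr1378 member (chr11:50964926-50965125) was the only member in all 5 Daxx-KO lists and in neither Daxx-WT list of the later experiments nor the DKO list. The Gm8374 member (chr14:7407288-7407487) had the largest fall in DKO KLS cells among the sites that could be named.
Mrc1: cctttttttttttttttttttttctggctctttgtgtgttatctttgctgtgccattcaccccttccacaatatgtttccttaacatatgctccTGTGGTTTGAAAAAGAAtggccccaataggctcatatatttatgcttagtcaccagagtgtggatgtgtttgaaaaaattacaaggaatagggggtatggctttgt
Olfr1378: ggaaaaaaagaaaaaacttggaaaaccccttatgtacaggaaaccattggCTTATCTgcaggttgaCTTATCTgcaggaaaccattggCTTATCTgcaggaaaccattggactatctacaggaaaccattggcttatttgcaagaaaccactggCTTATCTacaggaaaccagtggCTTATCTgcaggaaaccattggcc
Gm8374: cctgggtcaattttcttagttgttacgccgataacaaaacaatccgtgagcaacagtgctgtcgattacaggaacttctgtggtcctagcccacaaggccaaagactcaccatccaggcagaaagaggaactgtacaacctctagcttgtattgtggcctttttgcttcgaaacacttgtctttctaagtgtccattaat

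The question of whether these peaks recurred elsewhere was addressed by their overlap with the other 8 lists. Most of them, 11047 of 13562 (81.5%), were also in the Daxx-KO LT-HSC list, against 95.6% of shared peaks. They were far less frequent in the lists made by the other protocol. The Daxx-WT list at 3 d.p.i. held 1983 (14.6%) of them and the Daxx-KO list 2769 (20.4%), against 56.8% and 69.8% of shared peaks. In KLS cells, 1504 (11.1%) were in the Daxx-WT list and 2966 (21.9%) in the Daxx-KO list, against 50.8% and 68.9% of shared peaks. The DKO list held 216 (1.59%), against 20.8% of shared peaks. Daxx-KO progenitors rarely had them, with 822 (6.06%) in the Daxx-KO CMP list and 111 (0.818%) in the Daxx-KO GMP list. These are not independent of the rule, because the Daxx-WT lists of the same cell types chose the members.

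**Figure D1:**
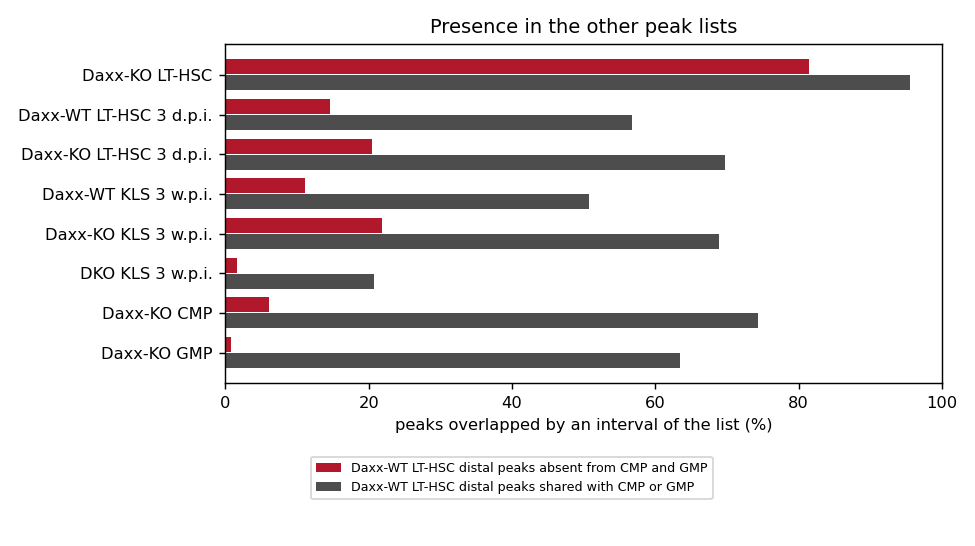
Share of distal Daxx-WT LT-HSC peaks, in percent on the x axis, that an interval of each of 8 other lists overlapped, for peaks absent from CMP and GMP (red, n = 13562) and shared with them (grey, n = 30967). The red bars are shorter in all 8 lists, from 81.5% in Daxx-KO LT-HSC to 0.818% in Daxx-KO GMP.

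Most members recurred in few lists. No other list held 2178 (16.1%) of them, and 5854 (43.2%) were in the Daxx-KO LT-HSC list alone. All 5 other stem cell and KLS lists apart from DKO held 431 (3.18%), against 36.0% of shared peaks, and 59 of these 431 (13.7%) were also in the DKO list. Only 1 member, in an intron of Itgb5 (an integrin subunit) at chr16:33937402-33938321, was in all 8 lists. Its fold enrichment, the height of a peak over the background of the peak caller, was 6.86 (Daxx-WT) and 6.82 (Daxx-KO) in the 3 d.p.i. lists, and 5.11, 6.21 and 3.79 in KLS cells of the Daxx-WT, Daxx-KO and DKO groups.

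Members were narrower than shared peaks, with a median width of 697 bp against 831 bp. Presence was therefore set side by side within 4 classes of width. Among peaks of 200 to 569 bp, 5.36% of members and 31.2% of shared peaks were in the Daxx-WT list at 3 d.p.i. Among those of at least 1035 bp the shares were 30.5% and 77.1%. The share of members was below that of shared peaks in all 4 classes and all 8 lists. Where members were found, their peaks were also lower, with a median fold enrichment of 4.50 against 5.70 for shared peaks in the Daxx-WT list at 3 d.p.i. and 4.72 against 5.34 in Daxx-WT KLS cells. In DKO KLS cells the medians were 3.67 and 4.29.

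More members were found in the Daxx-KO than in the Daxx-WT list at both stages. At 3 d.p.i. the ratio was 1.40 for members and 1.23 for shared peaks, while the Daxx-KO list itself was 1.20 times as long. In KLS cells the ratios were 1.97 and 1.36 and the list was 1.34 times as long. Both Daxx-KO lists and neither Daxx-WT list held 304 members (2.24%), and the opposite pattern applied to 50 (0.369%). With every list cut to its 22156 intervals of highest fold enrichment, the order at 3 d.p.i. turned round, with 466 members in the Daxx-WT and 336 in the Daxx-KO list. In KLS cells the counts were then 650 and 651. With the intervals at or above each list's own median fold enrichment, the counts were 297 and 336 at 3 d.p.i. and 341 and 668 in KLS cells. Whether the Daxx-KO lists held more members therefore depended on how the lists were cut.

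Beside the rule's own limits, 122 members lay in the first 100 bp past the 1 kb limit, and 97 peaks that were left out lay in the last 100 bp before it. A CMP or GMP interval lay within 100 bp of 49 members and within 500 bp of 674 (4.97%), whereas 5718 (42.2%) had none within 10 kb. The median gap was 7407 bp.

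Members lay farther from genes than shared peaks. The median distance to the start site of the nearest protein-coding gene was 21.7 kb for members and 15.9 kb for shared peaks, and 16.5% of members against 9.52% of shared peaks were over 100 kb away. Introns held 45.2% of members, intergenic sequence 46.8% and exons 7.99%. Median GC content was 46.0% against 48.0%, and soft-masked repeats made up 17.1% against 16.7% of the bases on average. Members in all 5 other stem cell and KLS lists were wider (median 1061 bp) and had a GC content of 48.5%, whereas those in none or 1 of these lists had 624 bp and 45.3%.

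The members were distributed over 6844 protein-coding genes by nearest start site, and 477 of these genes had at least 5. The gene with the most was Mecom, a zinc finger factor needed for stem cell maintenance, with 22 members. Rora, a nuclear receptor, had 21 and Foxp1, a forkhead factor, had 18. Adgrl2 (an adhesion receptor) had 16, and Nrxn3 (a synaptic adhesion protein) and Thsd4 had 14 each. Arid1b (a subunit of the BAF remodelling complex), Etaa1, Foxn3 and Mllt3 had 13 each, as did Pik3r1 and Zbtb20, which shared the last place among the first 10. At Etaa1, 13 of 14 distal LT-HSC peaks (92.9%) were members, and these lay up to 320 kb from its start site.

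Members made up 30.5% of all distal LT-HSC peaks, and Mecom is described further because it had the most members, not as a typical gene. Of its 35 distal LT-HSC peaks, 22 (62.9%) were members and 13 were shared, while CMPs and GMPs had 0 distal peaks of their own nearest to it. The members extended over chr3:29812549-30521076, and 20 of the 22 were in introns. The Daxx-KO LT-HSC list held 15 of them, the Daxx-WT and Daxx-KO lists at 3 d.p.i. 3 and 4, the Daxx-WT and Daxx-KO KLS lists 1 and 4, the Daxx-KO CMP list 1, and the DKO and Daxx-KO GMP lists 0. No Mecom member was in all 5 stem cell and KLS lists. The run of most members with gaps of at most 10 kb, singled out after its values were seen, was also here, with 6 members in chr3:30407731-30422252.

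Genes of stem cell factors had a larger share of members than other listed genes. Of the 413 distal LT-HSC peaks nearest to a list of 35 such genes, 175 (42.4%) were members, against 30.5% over all distal peaks. After Mecom and Mllt3 came Bcl11a, Meis1 and Tgfbr2 with 12 each and Zeb2 with 10, and 9 of the 35 genes had none. Mllt3, a reader of histone acylation that sustains self-renewal, had 13 of 19 (68.4%), Hlf, a PAR bZIP factor of stem cells, 5 of 9 (55.6%), and Meis1, a partner of Hox proteins, 12 of 24. Among stem cell quiescence genes the share was 34.0% (55 of 162), with Gadd45g at 8, Fos and Foxo1 at 6, Cdkn1c at 5 and Foxo3 at 4. For stem cell surface genes it was 23.8% (36 of 151), led by Kit (8), Angpt1 (5), Itga6 (4) and Ptprj (4), with 2 each at Cdh5 and Emcn.

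Lineage genes differed from each other. The lymphoid list had 37.2% (32 of 86), led by Gata3 with 10, Ebf1 with 5, Lef1 and Satb1 with 4, Tcf7 with 3 and Ccr9 with 2. All of these except Ccr9, a chemokine receptor, encode DNA-binding proteins of T- or B-cell development. The megakaryocyte and erythroid list had 28.6% (18 of 63), with Zfpm1 at 6, Car2 at 4 and Itgb3 and Vwf at 2. Granulocyte and monocyte genes had the smallest share, 17.4% (16 of 92), with Klf4 at 4, Irf8 at 3 and Csf3r at 2. These shares are counts over a few genes each, with no test, and a gene can hold many peaks.

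**Figure D2:**
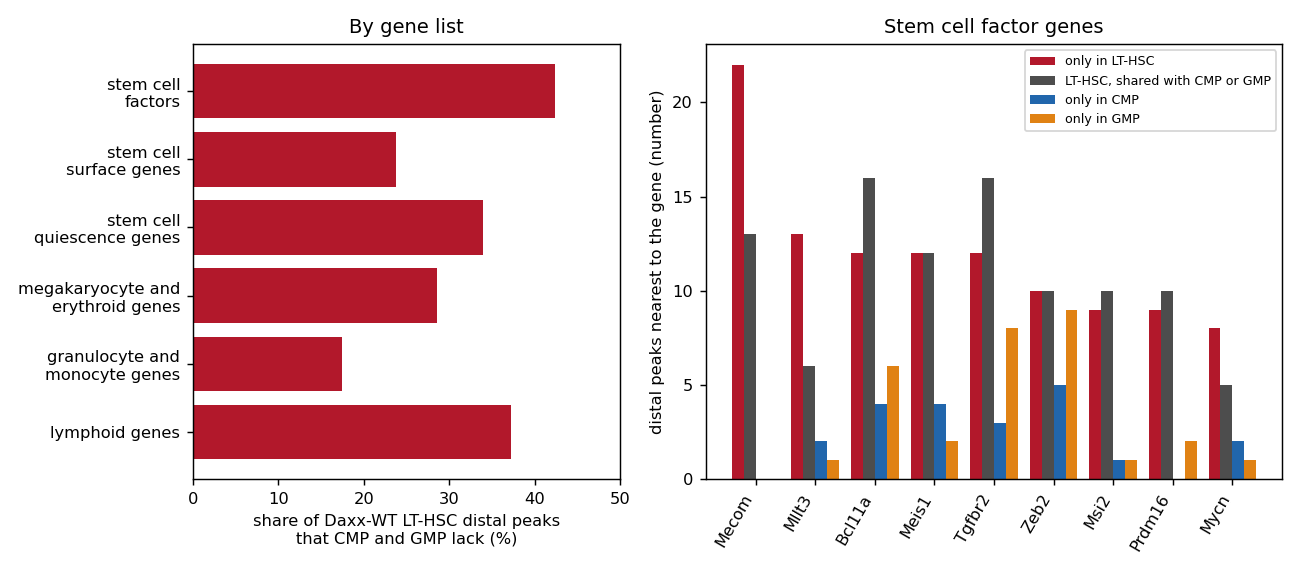
Left, share of the distal Daxx-WT LT-HSC peaks nearest to each of 6 gene lists that were absent from CMP and GMP, in percent, from 42.4% for stem cell factors to 17.4% for granulocyte and monocyte genes. Right, number of distal peaks nearest to the 9 stem cell factor genes with at least 8 members, by where the peak was found, with 22 LT-HSC-only peaks at Mecom.

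Members beside stem cell factor genes that were in all 5 other stem cell and KLS lists numbered 7, at 7 genes. The Mllt3 member shown above, 235 kb from the gene, had a fold enrichment of 8.78 (Daxx-WT) and 8.63 (Daxx-KO) at 3 d.p.i. In KLS cells it was 8.75 (Daxx-WT), 9.89 (Daxx-KO) and 3.48 (DKO). The Bcl11a member, in an intron of this transcriptional repressor gene, had 5.67, 5.08, 5.83, 6.35 and 4.51 in the same order. The Meis1 member had 6.79, 4.79, 4.99 and 6.84 and no DKO peak. The DKO value was the lowest wherever a DKO peak was listed. The median over the whole DKO list was also lower, at 4.93 against 5.67 (Daxx-WT) and 6.28 (Daxx-KO) in KLS cells. The other 4, at Hmga2, Zeb2, Lmo2 and Msi2, had values between 3.71 and 6.06 and no DKO peak.

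The highest fold enrichment in the Daxx-WT list at 3 d.p.i. belonged to the Gpr12 member at 17.4 (Daxx-WT) and 17.8 (Daxx-KO). The Cntnap5b member followed with 13.4 and 16.8, Lrrn3 with 11.6 and 10.6, and Dop1b with 11.6 and 14.2. Of these 4, Gpr12, Cntnap5b and Dop1b contained at least 4 TTAGGG units in a row. Only 8 members (0.0590%) in all had such a run, against 42 shared peaks (0.136%), and reads within repeats can be placed at more than 1 locus. The other members of the first 8 had no such run. They were at Tnfrsf11b (11.2 in Daxx-WT), the gene of a decoy receptor for RANKL, Ror2 (11.1), a Wnt receptor, Phtf2 (11) and Slc27a6 (10.9), a fatty acid transporter. These 4 were in all 5 stem cell and KLS lists, with 7.0, 8.0, 7.29 and 6.73 in KLS cells of the Daxx-WT and 9.34, 8.31, 6.88 and 9.91 in those of the Daxx-KO group.

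Sequence motifs were searched as letters on both strands within 100 bp of the peak centre, and a match describes letters and not binding. Members had fewer Pu.1 motifs (GAGGAAGT) than any of the 3 other sets of distal peaks, at 4.67% (633 of 13562) against 6.31% of shared peaks, 10.6% of CMP-only and 10.3% of GMP-only peaks. Over all 65455 intervals of the list the share was 4.80%. The C/EBP motif (TTGCNNAA), bound by granulocyte factors, was in 8.53% of members, 8.76% of shared and 8.0% of CMP-only peaks and in 24.1% of GMP-only peaks. The core of the CTCF motif (AGGGGGC), a factor that anchors chromatin loops, was in 4.33% of members and 7.25% of shared peaks. The general ETS core (CGGAAG) was in 4.12% and 5.95%.

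Motifs more frequent in members than in shared peaks included HOX-PBX (TGATTNAT) at 3.62% against 2.10%, the motif of GATA factors (AGATAAG) at 4.72% against 3.59%, that of AP-1 (TGANTCA), bound by Fos and Jun, at 9.17% against 7.93% and that of MEF2 factors (CTATTTNT) at 4.24% against 3.28%. The HOX-PBX letters can overlap an AP-1 match. The NFI site (TTGGCA) was in 13.3% against 11.6% and the IRF motif (GAAANNGAA) in 9.14% against 7.97%. RUNX (TGTGGTTT) was nearly equal at 4.16% and 4.0%. In all, 11 of 19 motifs had a higher share in members. When whole intervals were searched, this number fell to 4, and the differences for AP-1 (-1.10 percentage points), NFI (-1.25), IRF (-1.08) and RUNX (-0.97) changed sign. Those for GATA, HOX-PBX, MEF2 and the PAR bZIP motif (TTANGTAA) kept theirs.

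**Figure D3:**
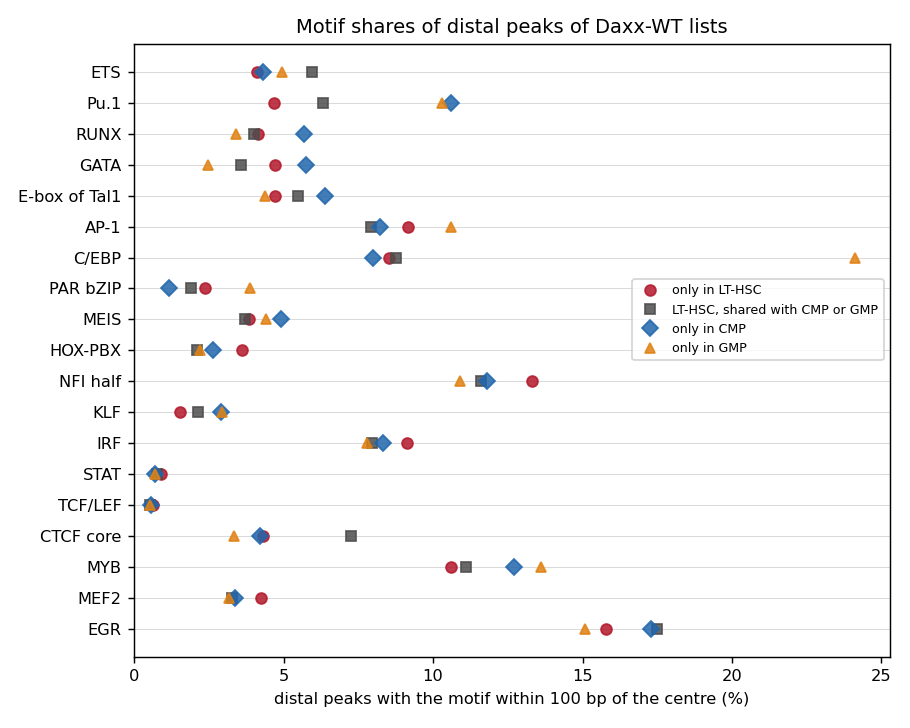
Share of distal peaks with each of 19 motifs within 100 bp of the centre, in percent, for peaks only in LT-HSC, shared, only in CMP and only in GMP (all Daxx-WT). The C/EBP motif of GMP-only peaks stands apart at 24.1%, and the Pu.1 motif has its lowest share, 4.67%, in LT-HSC-only peaks.

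Sites that differed between genotypes were then matched to the members. The authors' 3 tables list merged windows that they had already selected on the same libraries, so counts of changed members are not independent of that selection. Of the listed sites at members, values separated between groups (no library of one group within the other) were found for 171 higher and 510 lower ones at 3 d.p.i. (all sites 28.8% and 70.7%), for 195 and 583 in Daxx-KO KLS cells (all sites 18.8% and 80.8%) and for 302 and 1578 in DKO cells (all sites 72.1% and 27.8%). Values are reads at a site divided by a scaling constant per library. In all, 2969 members (21.9%) overlapped a site in at least 1 table and 10593 overlapped none. The Daxx-KO and DKO tables of KLS cells share their 2 Daxx-WT libraries. The labels do not say whether libraries came from separate mice. A legend of the study calls those at 3 d.p.i. independent samples, and its statistics section gives 2 or 3 biological replicates for its genomic assays. The p-values thus describe at most a spread between these libraries. For DKO cells the standard error (SE) was 0.36 at every named site, however far apart its libraries were. The SE and p-values there rest on a spread common to the listed sites, and not on that of the single site.

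At 3 d.p.i. (LT-HSCs, 3 Daxx-KO and 2 Daxx-WT libraries), most sites at members were lower in Daxx-KO cells, as were most of all listed sites. Most sites at shared peaks were higher. Of 684 sites at members, 172 were higher (25.1%, against 29.1% of all 11927 listed sites and 65.8% of sites at shared peaks), and 512 were lower (74.9%, against 70.9% of all sites and 34.2% at shared peaks). Counted by peak, 1.26% of members had a higher and 3.73% a lower site, against 3.95% and 2.03% of shared peaks and 2.93% and 2.37% of the whole list. No site at a member passed limma with Benjamini-Hochberg adjustment over all windows in either direction (0 and 0, as for all listed sites, 0%), and the lowest adjusted p was 0.301. At an unadjusted limma p under 0.05, 167 were higher and 509 lower, which was 24.4% and 74.4% of the sites at members and 25.9% and 70.2% of all listed sites. The median log2 fold difference was 0.89 for higher and -0.87 for lower sites. A log2 difference of at least 1 in size was seen for 54 higher and 161 lower sites, or for 151 and 20 when scaled to the mean reads per window, which moved the median of all sites by 0.33.

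The Mrc1 member, 10527 bp from the start site of this macrophage mannose receptor gene, had the largest difference of the named higher sites. Daxx-KO libraries had 254, 186 and 178 scaled reads at the site (chr2:14338301-14340200), and Daxx-WT libraries 73.2 and 46.0. The groups did not overlap, and the log2 fold difference was 1.79 ± 0.29 (SE) with a limma adjusted p of 0.301. In an intron of Auts2, the Daxx-KO values were 26.6, 21 and 35.9 and the Daxx-WT values 11.3 and 6.56 (log2 1.55). The higher sites at Uhrf1bp1l (log2 1.48) and Gm5269 (log2 1.45) reached the edge of their members, by 240 and 97 bp.

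Among lower sites, Cadm1, a cell adhesion molecule gene, had 15.6, 6.68 and 15.8 in Daxx-KO against 33.8 and 46.9 in Daxx-WT LT-HSCs (log2 -1.66 ± 0.38). Arnt2 had 16.5, 10.5 and 13.7 against 47.3 and 33.8 (log2 -1.51). Both named sites covered the member in full and their groups did not overlap. Epsti1 (log2 -1.86) and Kcnd3 (log2 -1.54) were overlapped at an edge only. Of the 175 members beside stem cell factor genes, 10 had a lower and 1 (Zeb2) a higher site, against 3.73% and 1.26% of all members, with no test of the difference. At Hlf, the larger site had 107, 111 and 131 scaled reads against 201 and 216 in the controls (log2 -0.84, limma adjusted p = 0.348). At Mecom the values were 16.5, 14.3 and 13.7 against 29.3 and 33.8 (log2 -1.04), and at Mllt3 53.2, 22.9 and 40.1 against 78.9 and 74.1 (log2 -1.04). All of these values were lower in each Daxx-KO library than in either Daxx-WT library.

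The motifs of the members differed by direction at 3 d.p.i. The GATA motif was in 24 of 171 members with a higher site (14.0%) and in 8 of 506 with a lower site (1.58%), against 4.72% of all members. With the motif searched around the centre of the site instead, the shares were 12.2% and 2.34%, and over all listed sites they were 8.89% and 2.02%. AP-1 went the other way, with 8.77% of members with a higher and 14.6% with a lower site, or 6.40% and 11.7% around the centre of the site. Over all listed sites it was in 5.52% and 7.14%, and over those at shared peaks in 5.39% and 9.91%. Pu.1 motifs were in 2.92% and 4.35%, but in 2.91% and 2.15% around the centre of the site, so their order depended on where the motif was searched. These shares were not tested, and the GATA and AP-1 splits had the same direction over all listed sites.

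**Figure D4:**
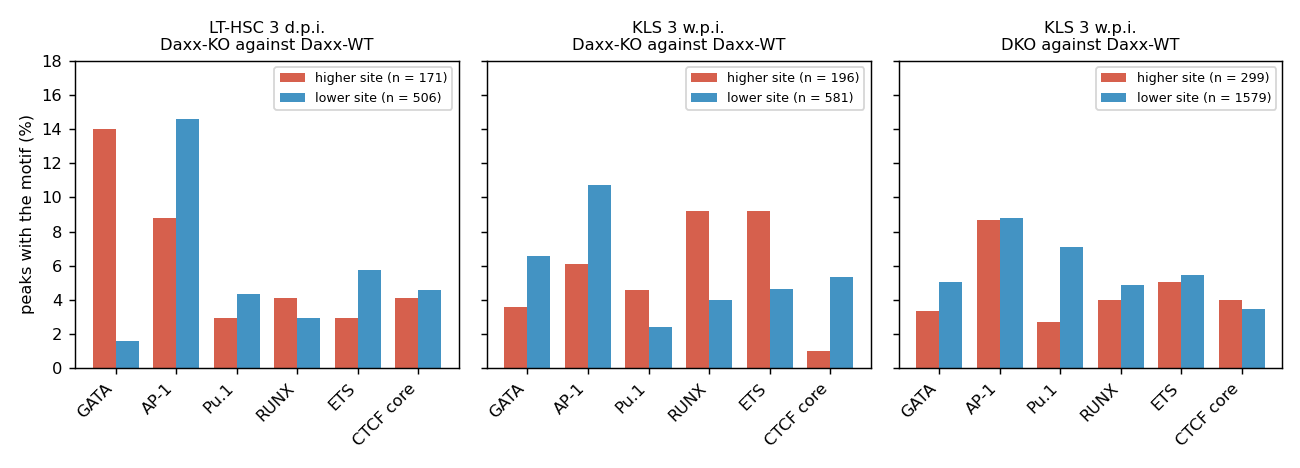
Share of LT-HSC-only distal peaks with a motif within 100 bp of their centre, in percent, among those with a higher (red) or lower (blue) site in each of the 3 tables. GATA stands at 14.0% of peaks with a higher and 1.58% with a lower site in LT-HSC at 3 d.p.i., and Pu.1 at 2.68% and 7.09% in DKO KLS cells.

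For KLS cells (3 w.p.i., 3 Daxx-KO and 2 Daxx-WT libraries), 196 of 781 sites at members were higher in Daxx-KO cells (25.1%, against 19.1% of all 17311 listed sites) and 585 were lower (74.9%, against 80.9% of all sites). At shared peaks, 1008 sites were higher and 1010 lower. By peak, 1.45% of members had a higher and 4.28% a lower site, against 3.26% and 3.22% of shared peaks and 2.42% and 3.48% of the whole list. No site passed the adjusted limma test (0 and 0, lowest adjusted p 0.284), with 186 higher and 575 lower at an unadjusted p under 0.05 (all listed sites 16.7% and 80.0%). A log2 difference of at least 1 in size was seen for 80 higher and 404 lower sites, or for 196 and 67 when scaled to the mean reads per window, which moved the median of all sites by 0.47.

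The largest difference was at the Olfr1378 member (chr11:50964669-50965383), next to an olfactory receptor gene. The site had 155, 157 and 191 scaled reads in the Daxx-KO libraries against 19.2 and 36.7 in the controls (log2 2.60 ± 0.35, limma adjusted p = 0.284), so the groups were far apart. The 200 bases shown above hold 5 GATA motifs, in the reverse letters CTTATCT, within a short tandem repeat. This member was in the lists of Daxx-KO LT-HSCs, Daxx-KO LT-HSCs at 3 d.p.i. and Daxx-KO KLS cells, CMPs and GMPs. The Mrc1 member was again higher, with 57.9, 35.0 and 98.8 against 25.5 and 11.5 (log2 1.71 ± 0.49). The higher sites at Trpc6 (log2 1.85) and Sptb (log2 1.67) overlapped their members by 153 and 283 bp.

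The named lower sites were at Triqk (log2 -2.16), Mnt (-2.12), Gab1 (-2.10) and Tnp1 (-1.98), of which those at Gab1 and Tnp1 had their centre in the member. Gab1, an adaptor of receptor tyrosine kinases, had 1.11, 5.25 and 10.3 in Daxx-KO libraries against 22.8 and 20.6 in the controls. Of the 175 members beside stem cell factor genes, 13 had a lower and 2 (at Fli1 and Runx1) a higher site, against 4.28% and 1.45% of all members, the Fli1 site touching its member at the edge. At Mecom a site had 23.4, 18.4 and 21.6 against 68.4 and 40.1 (log2 -1.28, limma adjusted p = 0.284). At Mllt3 a site had 11.1, 6.12 and 11.3 against 39.2 and 21.8 (log2 -1.57). Of the 32 lymphoid members, 5 had a higher and 1 a lower site, and of the 16 granulocyte and monocyte members 1, at Irf8, had a higher site. Over all members the shares were 1.45% higher and 4.28% lower, and these few counts were not tested. The higher lymphoid sites were at Ccr9, Ebf1, Gata3 and Notch1.

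GATA motifs did not follow the direction seen at 3 d.p.i. In KLS cells they were in 3.57% of members with a higher and 6.54% with a lower site. Around the centre of the site the shares were 1.53% (3 of 196) and 3.42% (20 of 585), and over all listed sites 2.09% and 2.70%. These differences are small and were not tested. RUNX was in 9.18% and 3.96%, or in 5.61% and 1.71% around the centre of the site, where all listed sites had 5.47% and 1.40%. The ETS core was in 9.18% and 4.65%, but in 5.61% and 4.96% around the centre of the site, where all listed sites had 6.59% and 3.06%. A site in both the LT-HSC and the Daxx-KO KLS table was found at 54 members, of which 32 were lower in both, 8 higher in both, 9 higher in LT-HSCs and lower in KLS cells, and 5 the reverse. These tables have no library in common, and the Mrc1 member is among the 8.

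In DKO KLS cells (2 DKO, 2 Daxx-WT libraries), 303 of 1882 sites at members were higher (16.1%, against 72.1% of all 50928 listed sites and 16.4% at shared peaks) and 1579 lower (83.9%, against 27.9% of all and 83.6% at shared peaks). By peak, 2.20% of members had a higher and 11.6% a lower site, against 4.50% and 23.2% of shared peaks and 3.54% and 19.4% of the whole list. With limma, 230 sites rose and 1102 fell (12.2% and 58.6% of the member sites, against 67.3% and 14.9% of all listed sites). At an unadjusted p under 0.05 there were 300 and 1575, or 71.8% and 26.4% of all listed sites. Scaled to the mean reads per window, which moved the median of all sites by -0.67, 4 rose and 1577 fell, and without either DKO library the limma calls were 0 and 0. Without the first Daxx-WT library, 117 rose and 452 fell.

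Members were also split by the number of other stem cell and KLS lists that held them. These lists include the Daxx-WT lists of the control libraries in the tables, so a split by them selects sites with many reads in the controls, and the shares are a description only. Of the 431 members in all 5 other stem cell and KLS lists, 239 (55.5%) had a lower site in DKO cells, against 18.2% of those in 2 to 4 lists and 5.96% of those in none or 1. In Daxx-KO LT-HSCs at 3 d.p.i. the corresponding shares were 9.28%, 5.62% and 2.45%, and those with a higher site were 0.232% (1 member), 2.59% and 0.607%.

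The Gm8374 member had 2.12 and 4.68 scaled reads in DKO and 29.3 and 20.8 in Daxx-WT cells (log2 -2.61 ± 0.36, limma adjusted p = 6.12e-10). This member was in none of the other 8 lists, that of Daxx-WT KLS cells included. The site at Gm3194, on the same chromosome, fell from 23.1 and 26.3 to 6.36 and 3.75 (log2 -2.12). Sites in introns of Myo6 (log2 -2.24) and Gpc3 (log2 -2.12, nearest to Gpc4) fell as well. Among sites that rose, Rogdi had 153 and 126 against 37.3 and 26.3 (log2 2.11, limma adjusted p = 9.62e-07). Its member was in the DKO list and no other. Tek, the receptor of angiopoietin and a stem cell marker, had 29.7 and 40.3 against 7.99 and 5.48 (log2 2.22), with 205 bp of the member covered. The Amz1 site (log2 2.28) touched its member by 30 bp, and the Piga site (log2 1.95) by 136 bp. When scaled to the mean reads per window, these 4 log2 differences became 1.43 at Rogdi, 1.58 at Tek, 1.60 at Amz1 and 1.29 at Piga, and the site at Amz1 no longer passed.

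Of the 175 members beside stem cell factor genes, 35 had a lower site and 0 a higher one in DKO cells. The shares were 11.6% and 2.20% of all members, 23.2% and 4.50% of shared peaks and 19.4% and 3.54% of the whole list. The share of lower sites beside these genes was thus near that of the whole list, and it was not tested. Members with a lower site were most numerous at Mecom (6), Meis1 (5), Prdm16 (5) and Zeb2 (4). At Mecom the log2 differences ranged from -1.14 to -1.73, with 8.48 and 29.0 against 55.9 and 53.7 at the largest (limma adjusted p = 8.98e-05). Zeb2, a zinc finger repressor, fell at one site from 40.8 and 51.5 to 9.54 and 16.9 (log2 -1.77). The recurrent Meis1 member shown above fell from 112 and 89.9 to 45.6 and 43.1 (log2 -1.16, limma adjusted p = 0.0156), and the recurrent Mllt3 member from 237 and 143 to 89.1 and 85.2 (log2 -1.07, limma adjusted p = 0.0329). At the recurrent Hmga2 member, 53.0 and 64.6 against 106 and 92.1 gave log2 -0.75 and did not pass (limma adjusted p = 0.334). Of the 55 members beside quiescence genes, 8 had a lower and 2 a higher site, and of the 32 beside lymphoid genes 1 and 3.

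Pu.1 motifs were in 112 of 1579 members with a lower site in DKO cells (7.09%) and in 2.68% of those with a higher site. Around the centre of the site the shares were 6.21% and 0.660%. Over sites at shared peaks these were 11.6% and 1.84%, and over all listed sites 8.80% and 1.31%. Only 2 of 303 member sites make up the 0.660%, and these differences were not tested.

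**Figure D5:**
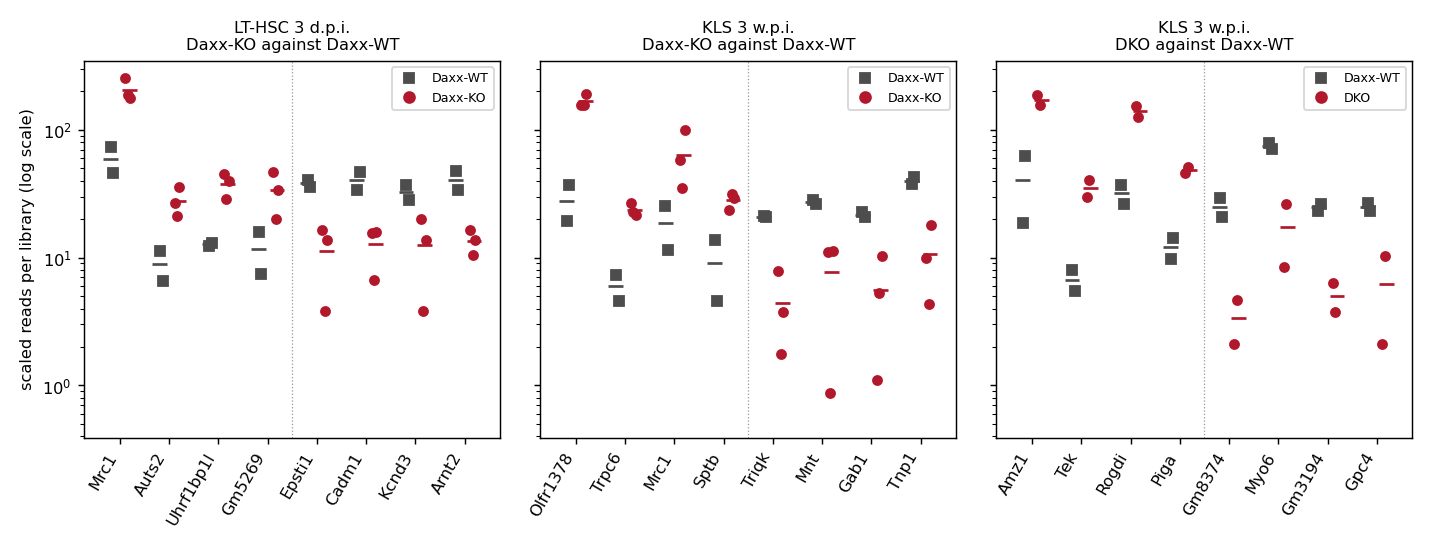
Scaled reads per library, on a log axis, at the 4 higher (left of the dotted line) and 4 lower sites (right) named for each table, with Daxx-WT libraries as grey squares, Daxx-KO or DKO libraries as red circles and the group mean as a line. The groups do not overlap at any of these sites, which was a condition for naming them.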

How the data were processed

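ATAC-seq had been run on 24 libraries of 11 groups, which were assigned from the library titles. The authors deposited 1 peak list per group on mm10. The 6 lists of unlabelled time hold positions alone, so their depth is unknown. The other 5, conservative lists by irreproducible discovery rate per their names, also give each peak a fold enrichment over the caller's background, a ratio that the authors computed, of which the highest per interval was kept. The submitters' processing notes name CASAVA 1.8.4, cutadapt 1.13, STAR 2.5.3 and bedtools. The aligner settings and peak caller are not given in the sources used here.

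The 3 tables were made by the authors with diffReps, which tested sliding windows and listed those past a p-value limit, merged. Per the file headers, libraries had 4.21 to 16.0 reads per window on average. Values per library are reads divided by a normalisation constant. The columns of log2 fold change, p-value and adjusted p-value hold the authors' comparisons and were not used.

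Members were found with an overlap of 1 bp and the start sites of GENCODE release M 21, on the standard chromosomes. Genes are the nearest protein-coding start site. Motifs were letter matches in 200 bp of the reference sequence. Table sites were tested with limma 3.58.1 on log2(value + 1), without a block, over all listed sites of a table, with Benjamini-Hochberg adjustment over the windows that the header counts as tested (threshold 0.05). A fold change on this scale understates that of low sites. The step was also run on simulated counts, adjusted over the listed sites only and without the authors' selection of sites. Because of these differences, that run cannot show how the reported calls behave. Peak lists allow no test. Python 3.11.15, pandas 2.3.3, pysam 0.24.0, samtools 1.23.1, matplotlib 3.10.9 and R 4.3.3 were used.

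The named loci followed a rule: the 10 genes with the most members, the 6 of each gene list with the most, the 8 members of highest fold enrichment in Daxx-WT LT-HSCs at 3 d.p.i., and per table the 4 higher and 4 lower sites of largest fold with separated library values and a mean of at least 10. Some genes and sequences that the rule selects are not reported here. The members, gene lists and motifs were chosen with earlier results of these data known. Alternatives were another overlap, distance, width or enrichment limit, motif window, pseudocount (5) and scaling, and leaving out each library.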

Additional observations from a re-analysis of the deposited data

Results flagged for a closer look

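Of the 54 members with a site in both the LT-HSC 3 d.p.i. and the Daxx-KO KLS table, 9 were higher in Daxx-KO LT-HSCs and lower in Daxx-KO KLS cells, and 5 were lower in LT-HSCs and higher in KLS cells. They stood out because Daxx-KO libraries moved in opposite directions in the 2 cell populations, which also differ in time after induction and, per the study's RNA methods, in the Cre line (RosaCreER and Mx1Cre). The difference was not tested.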

How the results depend on the processing

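Presence in a list cannot be read per library, and the 5 lists at 3 d.p.i. or 3 w.p.i. differ in length, so presence depends on how deep a list goes. With an overlap of at least 50% of the interval throughout, 16508 peaks were members, of which 729 were in all 5 stem cell and KLS lists. With intervals at least as wide as the list's median there were 3948 members, of which 3669 were in the Daxx-KO LT-HSC, 1069 and 1414 in the Daxx-WT and Daxx-KO 3 d.p.i., 865, 1424 and 115 in the Daxx-WT, Daxx-KO and DKO KLS, 293 in the Daxx-KO CMP and 27 in the Daxx-KO GMP lists. With the intervals at or above each list's median fold enrichment, 297 and 336 (3 d.p.i.), 341, 668 and 24 (KLS) members were present and 69 in all 5. With the lists cut to equal length, chosen after seeing the data, there were 466, 336, 650 and 651, and 93 in all 5. The last 3 alternatives leave fewer intervals by construction.

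With motifs in whole intervals, 4 motifs were more frequent in members, and the differences from shared peaks reversed for RUNX (-0.97 percentage points), AP-1 (-1.10), MEIS (-1.78), NFI (-1.25), IRF (-1.08), STAT (-0.16) and TCF/LEF (-0.11). MEIS also reversed within 50 bp of the centre (-0.06). Shares at table sites were also taken around the centre of the site, an alternative added after seeing the data.

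Adjusted over the listed sites only, which had been selected on these libraries, 167 and 507 sites at members rose and fell in the LT-HSC table and 186 and 574 in the Daxx-KO KLS table. With a pseudocount of 5, 22 and 66 passed in the latter. With the centre of a site in a member, 338 sites were lower in Daxx-KO KLS cells, and 127 were higher in DKO cells, of which 88 passed. Scaling to the mean reads per window left 4 rises in DKO cells. Leaving out each library gave 0 to 167 rises and 0 to 861 falls in the DKO table, and 0 in the other tables. The lone library left in an arm is then assumed to vary like the others. The cause was not tested.

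With the replicate number as a block, 2 sites rose and 27 fell in the Daxx-KO KLS table and 233 and 1141 in the DKO table. The pairing check gave correlations of 0.008 and 0.052 in the first and -0.003 in the second. It used only the listed sites, which had been selected on these libraries, so it cannot show whether libraries of the same number belong together. No blocked fit was possible for the LT-HSC table, because its library names carry no replicate number.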
